A study of Mus musculus with 88 samples.

Results

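The hearts of mice lacking both SR-BI and apolipoprotein E were compared on a diet with probucol and on chow at an age of 21 days. The comparison used the 6 arrays titled as dKO with probucol and the 10 titled as dKO on chow at that age, 16 of the 88 arrays of the series, chosen by their titles alone. The dKO mice had the genotype SR-BI-/- apoE-/-. The HET mice set beside them were SR-BI+/- apoE-/-, so every mouse in the study lacked apolipoprotein E and no wild-type heart was measured. HET hearts at 21 days came from 3 mice on probucol and 9 on chow. Probucol and chow hearts of dKO mice numbered 8 and 10 at 31 days and 6 and 12 at 43 days. Each mouse had 1 Affymetrix array of total RNA from the whole heart. The design text puts the dKO mice on chow at 21 days before any detectable coronary artery disease, with small infarcts by 31 days and extensive ones by 43 days. The dose of probucol and the age at which it was started are not given in the sources used here.

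SR-BI, encoded by Scarb1, is the receptor that takes up cholesteryl esters from high-density lipoprotein, and apolipoprotein E is the ligand through which the liver clears remnant particles. Mice without both have very high plasma cholesterol, red blood cells that carry excess cholesterol, and occlusive coronary disease at a young age. Probucol is a lipid-lowering antioxidant drug. In plaques and injured muscle, monocytes become macrophages that take up lipoproteins and debris, and haem oxygenase-1, encoded by Hmox1, degrades the haem of engulfed red cells and is also induced by oxidants.

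The promoters of 3 genes that fell with probucol are shown because they stand for the largest groups among the falls. Alas2 encodes the enzyme that starts haem synthesis in developing red cells, and Cd68 and Mmp12 encode a lysosomal protein and an elastase of macrophages. Each sequence is the 250 bases before the gene's start from RefSeq, on the gene's strand, 5′ to 3′, in build GRCm38.p6. Alas2 lies at chrX:150547167-150547416 on the plus strand, Cd68 at chr11:69666171-69666420 on the minus strand and Mmp12 at chr9:7344147-7344396 on the plus strand. Of the 69 genes that fell, 49 had an entry among these promoters.
Alas2: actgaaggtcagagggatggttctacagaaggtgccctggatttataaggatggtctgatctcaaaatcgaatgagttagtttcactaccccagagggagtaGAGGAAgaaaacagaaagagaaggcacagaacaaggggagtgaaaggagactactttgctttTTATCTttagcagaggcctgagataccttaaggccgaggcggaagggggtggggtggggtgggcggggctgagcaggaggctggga
Cd68: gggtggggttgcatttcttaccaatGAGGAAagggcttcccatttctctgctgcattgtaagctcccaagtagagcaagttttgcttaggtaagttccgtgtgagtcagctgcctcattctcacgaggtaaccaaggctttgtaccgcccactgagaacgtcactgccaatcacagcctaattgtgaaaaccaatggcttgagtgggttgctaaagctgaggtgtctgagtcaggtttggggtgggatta
Mmp12: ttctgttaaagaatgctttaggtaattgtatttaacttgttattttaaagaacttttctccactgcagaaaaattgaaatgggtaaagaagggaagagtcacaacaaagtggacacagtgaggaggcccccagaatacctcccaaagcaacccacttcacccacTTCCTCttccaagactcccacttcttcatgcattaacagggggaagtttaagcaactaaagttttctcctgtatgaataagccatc
Capitals mark every match on either strand to AGATAA, the core that GATA factors of red cells bind, and to GAGGAA, a core bound by PU.1 of macrophages, and no matches overlapped. AGATAA was found in Alas2 alone of the 3, on the opposite strand 86 to 81 bases before the start. GAGGAA was found in all 3, at 148 to 143 bases in Alas2 and at 225 to 220 bases in Cd68 on the gene's strand, and at 86 to 81 bases in Mmp12 on the opposite strand. Of 32851 promoters of the same length, 9.99% held AGATAA and 23.3% held GAGGAA on either strand. The matches describe the letters and do not show binding.

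Levels are log2 signals centred on each array's median, and a difference is probucol minus chow with its standard error (SE). Heart muscle genes were bright on all 16 arrays: Myh6, the main cardiac myosin, was at 12.85 to 13.14 in dKO probucol hearts and at 12.52 to 13.24 in dKO chow hearts. Scarb1 was at 5.43, 6.53 and 6.79 in dKO probucol hearts (lowest, median, highest) and at 5.56, 6.37 and 6.80 in dKO chow hearts. In HET hearts it was at 7.09 to 7.53 on probucol and at 7.13 to 8.16 on chow. Every dKO array of either diet was thus below every HET array at this age. The 2 probe sets of Apoe were between 2.23 and 4.49 on the 16 arrays and too dim to be tested.

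The 16 arrays were not uniform. What separates the array sets described next is unknown. A component of the residual spread split all 88 arrays into sets of 68 and 20, and the smaller set held 1 of 6 dKO probucol and 6 of 10 dKO chow arrays (Fisher's exact test, two-sided p = 0.145). The log2 ratio of the 3' to the 5' actin control, a measure of RNA integrity and labelling, was 0.09 ± 0.19 in dKO probucol hearts and -0.16 ± 0.11 in dKO chow hearts (SD, n = 6 and 10, exact permutation test, two-sided p = 0.00425). The same ratio for Gapdh was -0.09 ± 0.06 in probucol and -0.08 ± 0.06 in chow hearts (SD, exact permutation p = 0.855). By the balance of Eif2s3y and Xist, 1 of 6 probucol hearts and 4 of 10 chow hearts were male (Fisher's exact p = 0.588). Replicate 2 of the dKO chow hearts is described as 31 days old in one label and as 21 days old in 3 others, and was kept at 21 days. The fit was therefore repeated with the array set as a block, within the larger set alone (5 probucol and 4 chow arrays) and without that heart.

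The question was how probucol changed the dKO heart before disease was detectable. Of 5672 genes tested, 69 fell (1.22%) and 4 rose (0.0705%) at an adjusted p of 0.05 (limma, Benjamini-Hochberg), or 1.29% in either direction, and 756 genes (13.3%) had an unadjusted p under 0.05. The falls ran from -0.35 to -2.40 with a median of -0.68, 51 of them over 1.5-fold and 11 over 2-fold, against a median of -0.09 over all genes, of which 3804 of 5672 were below 0. Among the 69 were 6 of 20 macrophage markers, 4 of 10 erythroid genes and Hmox1. When the array set entered as a block, the count was 26, with 25 lower and 1 higher. Of the 69 falls, 24 stayed past the threshold there. All 69 were below 0 in that fit (median -0.62) and within the larger set (median -0.48), where 1 gene was called. The 69 were picked on these same arrays, so their signs there are not a separate test. Without dKO chow replicate 2 the count was 28 and all of them were lower. Of 27 called genes described below, 9 were still called there: Hmox1, Alas2, Car2, Cd68, Mpeg1, Mmp12, Tgfb1, Rbl1 and Nes. Without dKO chow replicate 3 it was 132. The number of calls therefore depended on single hearts and on the scaling, with 10 genes called on the signals as deposited and 19 after quantile normalization.

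**Figure D1:**
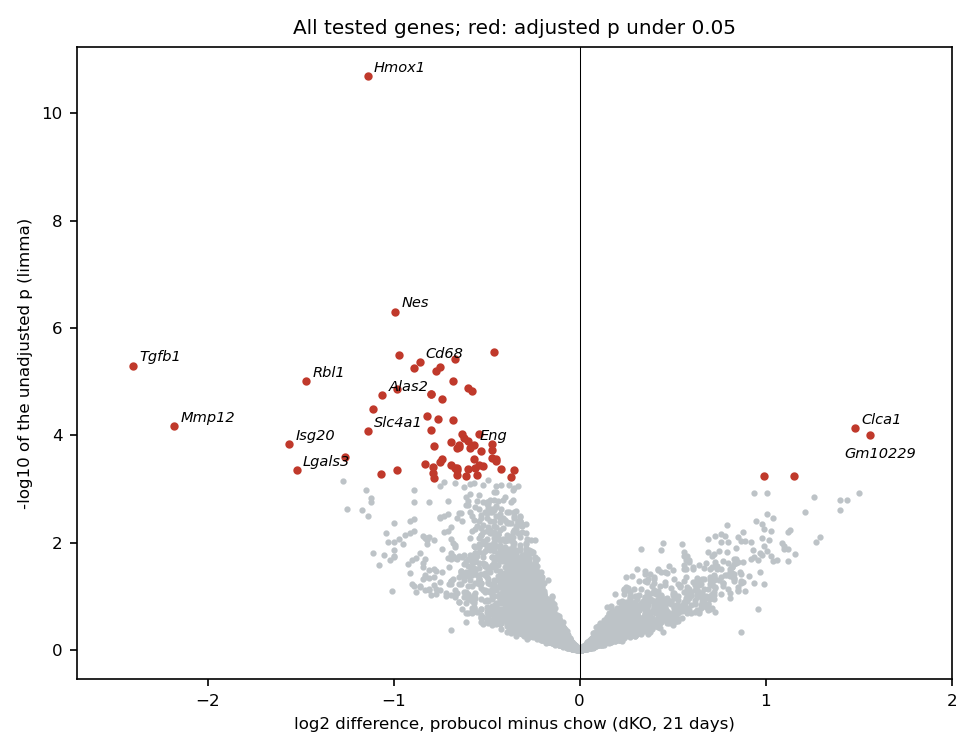
Each point is 1 of the 5672 tested genes, with its log2 difference between probucol and chow in dKO hearts at 21 days on the x axis and -log10 of its unadjusted limma p on the y axis; red points passed an adjusted p of 0.05. The 69 red points on the left and 4 on the right show the excess of falls, and Hmox1 stands above all other genes.

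**Figure D2:**
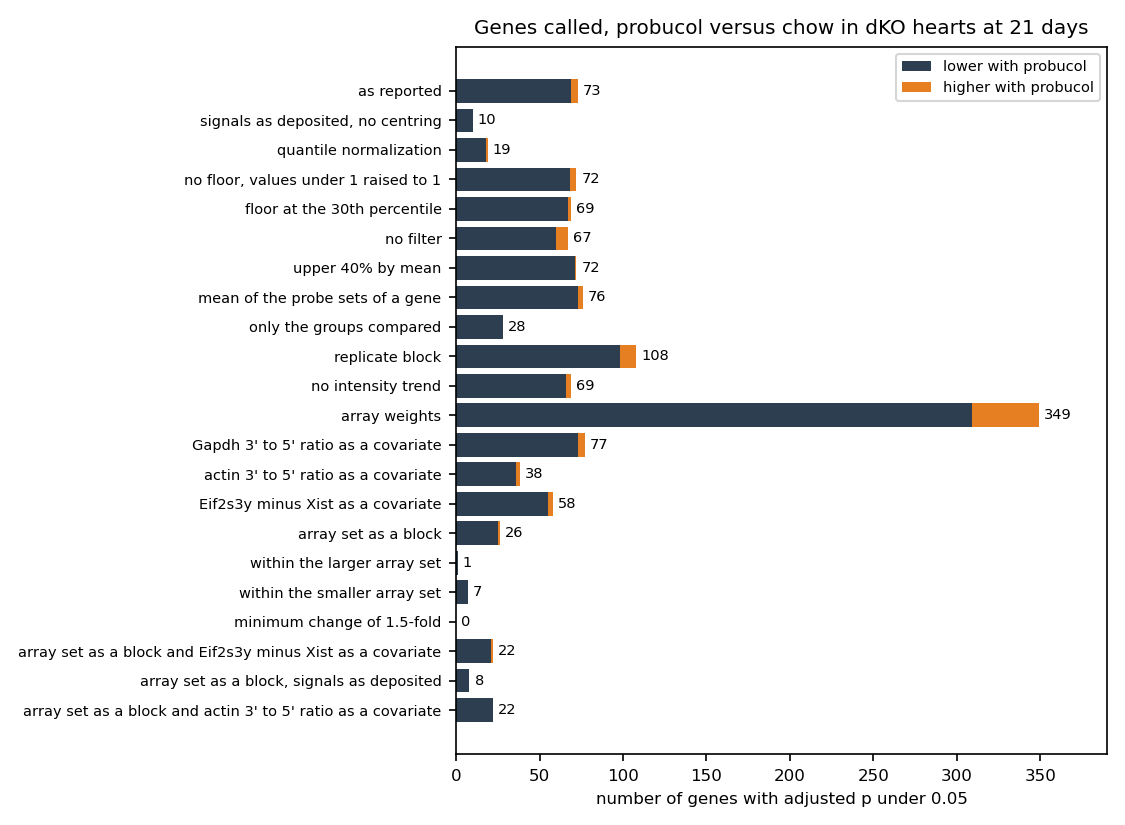
Number of genes with an adjusted p under 0.05 between probucol and chow in dKO hearts at 21 days under each way of processing, lower (dark) and higher (orange). The reported count is 73, with 10 as deposited, 26 with the array set as a block, 1 within the larger set and 349 with array weights.

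Hmox1, which degrades haem, separated the diets completely. It was at 7.78, 7.91 and 8.08 in dKO probucol hearts (lowest, median, highest) and at 8.42, 9.08 and 9.69 in dKO chow hearts. All 6 probucol hearts lay below all 10 chow hearts. The difference was -1.14 ± 0.15 (SE), or 2.21-fold lower, with the smallest p of all genes (limma adjusted p = 1.14e-07). Hmox1 was the 1 gene called within the larger array set, where probucol hearts were at 7.78 to 8.05 and chow hearts at 8.42 to 9.41 (difference -0.95, limma adjusted p = 0.0251). It was called in 16 of 16 fits that left out 1 heart. HET hearts were at 7.96 to 8.25 on probucol and at 7.64 to 8.22 on chow, so the dKO probucol hearts lay in the HET range. Of the other 8 tested genes of haem breakdown and iron handling none passed, and the median of the list was -0.13. Of 31 antioxidant and NRF2 target genes, Hmox1 was the only one called, where 1.22% of all genes fell. The list median was -0.10 against -0.09 for all genes.

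Some red cell genes also fell. Of 10 tested erythroid genes 4 fell and 0 rose (1.22% of all genes fell), with a median of -0.70 against -0.09 for all genes. Slc4a1, the anion exchanger band 3 of the red cell membrane, was at 5.59, 5.82 and 6.19 in dKO probucol hearts and at 6.65, 6.93 and 7.68 in dKO chow hearts. These groups did not overlap, and the difference was -1.14 ± 0.28 (limma adjusted p = 0.0176). Alas2, shown above, was at 7.82, 8.28 and 9.25 in dKO probucol hearts and at 8.48, 9.77 and 10.09 in dKO chow hearts. Its groups overlapped at 2 probucol and 3 chow hearts, and the difference was -1.06 ± 0.23 (limma adjusted p = 0.00564). Car2, carbonic anhydrase 2, fell by 1.11 ± 0.25 and the beta globin gene Hbb-b2 by 0.79 ± 0.22 (limma adjusted p = 0.00913 and 0.0433).

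Other erythroid genes did not pass. Bpgm, which makes the haemoglobin ligand bisphosphoglycerate, differed by -0.89 ± 0.26 and Hba-a1, an alpha globin, by -0.61 ± 0.18. The red cell transcription factors Gata1 and Klf1 differed by 0.38 ± 0.32 and -0.02 ± 0.60. The summed linear signal of the 10 genes was 10345 to 17931 in dKO probucol hearts and 14717 to 25528 in dKO chow hearts, with medians of 12306 and 22691. In whole-heart RNA, fewer cells of a type and less RNA per cell cannot be told apart, and blood left in the chambers was not measured. With the array set as a block 3 of the 10 remained called, and without dKO chow replicate 2 or probucol replicate 5 the number was 2. As deposited, with no centring, 1 was called.

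Macrophage genes formed the next group. Of 20 tested macrophage markers 6 fell and 0 rose, where 1.22% of all genes fell. This list, like the others, was chosen with earlier results of these data known. Of the 20, 19 were below 0, as were 3804 of all 5672 genes, and the median was -0.37 against -0.09. Cd68, a lysosomal membrane protein, was at 6.82, 7.15 and 7.23 in dKO probucol hearts and at 7.14, 8.07 and 8.45 in dKO chow hearts. Of the chow hearts 1 lay inside the probucol range, and the difference was -0.86 ± 0.17, or 1.81-fold lower (limma adjusted p = 0.00357). Mpeg1, a pore-forming protein of macrophages, was at 7.09, 7.54 and 8.00 in dKO probucol hearts and at 7.62, 8.34 and 8.68 in dKO chow hearts. Its groups overlapped through 1 low chow heart, and it fell by 0.76 ± 0.18 (limma adjusted p = 0.0126). Mmp12, the macrophage elastase, was at 2.47, 4.37 and 5.62 in dKO probucol hearts and at 4.49, 6.42 and 7.59 in dKO chow hearts. Probucol hearts were spread widely and 3 of 6 lay above the lowest chow heart. The difference was -2.18 ± 0.52, or 4.52-fold lower (limma adjusted p = 0.016), and a second probe set of Mmp12 gave -1.07 ± 0.32.

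Tyrobp, a signalling adaptor of myeloid receptors, fell by 0.78 ± 0.20 (limma adjusted p = 0.0235). Lgals3, galectin-3, fell by 1.52 ± 0.42 (adjusted p = 0.0395), and the leukocyte receptor Lilr4b was the sixth marker that fell. Adgre1 and Csf1r, which mark most tissue macrophages, differed by -0.11 ± 0.40 and 0.13 ± 0.15 and did not pass. The summed linear signal of the 20 markers was 3307 to 4560 in dKO probucol hearts and 3612 to 7219 in dKO chow hearts, with medians of 3862 and 4975. With the array set as a block 3 of the 20 were called, namely Cd68, Mpeg1 and Mmp12, and without dKO chow replicate 2 also 3. Leaving out probucol replicate 1, 3 or 5 or chow replicate 1 or 5 left 2 or 3. As deposited 0 were called. Within the larger array set 0 were called at an adjusted p, while the list median was -0.21 against 0.06 for all genes there. No tested marker of neutrophils (5) or of T and B lymphocytes (6) was called (limma), and 0 had an unadjusted p under 0.05.

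**Figure D3:**
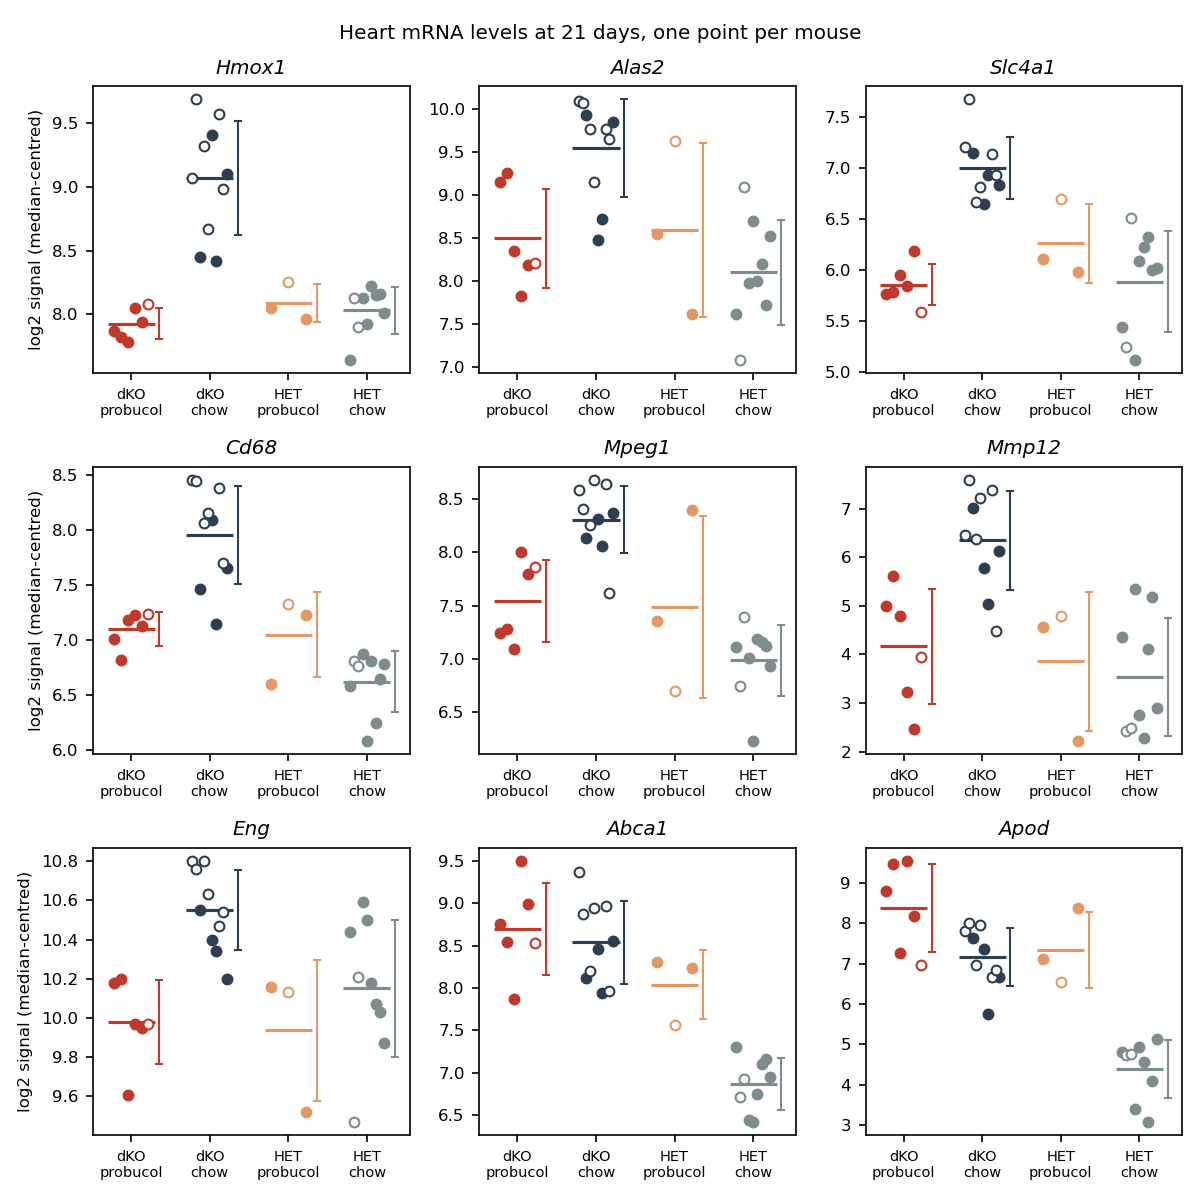
Centred log2 signal of 9 genes in hearts at 21 days, 1 point per mouse; horizontal lines are group means, bars are 1 SD, and open points are arrays of the smaller array set. Hmox1 and Slc4a1 do not overlap between dKO probucol and dKO chow hearts, Cd68 and Mpeg1 overlap at the edges, and Abca1 is high in dKO hearts of both diets.

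Signalling genes were led by Tgfb1, the cytokine transforming growth factor beta 1. It was at 2.77, 3.51 and 3.98 in dKO probucol hearts and at 3.97, 6.11 and 7.19 in dKO chow hearts, and the groups touched at 1 heart each. Its difference of -2.40 ± 0.49 was the largest fall of all (limma adjusted p = 0.00357), in a gene whose probucol levels lay within 2 log2 units of the floor at 2.08. Cxcl12, a chemokine that holds blood progenitors in place, fell by 0.59 ± 0.15 (limma adjusted p = 0.0235). Other probe sets of Cxcl12 gave -0.17 ± 0.28 and -0.59 ± 0.18. Tgfb1 and Cxcl12 were the 2 of 11 chemokines and cytokines that fell, where 1.22% of all genes fell. The median of the list was -0.57 against -0.09 for all genes. The monocyte chemokine Ccl2 differed by -0.57 ± 0.43 and Ccl12 by -1.0 ± 0.34, neither past the threshold. Isg20, an interferon-induced exonuclease, fell by 1.56 ± 0.39 (limma adjusted p = 0.0233). It was the only one called of 17 interferon-stimulated genes, again beside 1.22% of all genes. With the array set as a block Tgfb1 was called at -2.12 (limma adjusted p = 0.0248) and Cxcl12 and Isg20 were not (adjusted p = 0.187 and 0.124), nor were they without dKO chow replicate 2 (0.0649 and 0.0595).

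Genes of vessels and matrix were also among the falls. Eng, endoglin of endothelial cells, was at 9.61, 9.97 and 10.20 in dKO probucol hearts and at 10.20, 10.54 and 10.80 in dKO chow hearts. The groups met at 10.20 without overlapping, and the difference was -0.57 ± 0.14 (limma adjusted p = 0.0233). Icam2, an adhesion molecule of endothelium, fell by 0.79 ± 0.21 (limma adjusted p = 0.0392). These were 2 of 17 endothelial markers called (1.22% of all genes fell), and 16 of the 17 were below 0, as were 3804 of all 5672 genes, with a median of -0.38. Pecam1 and Cdh5, which define the cell type, differed by -0.14 ± 0.26 and -0.48 ± 0.16 and did not pass. Of 37 matrix genes 3 fell: Fn1, fibronectin, by 0.47 ± 0.12, Col18a1, which carries endostatin, by 0.66 ± 0.17, and Bgn, biglycan, by 0.47 ± 0.12 (limma adjusted p = 0.0233, 0.0235 and 0.0254). The median of the matrix list was -0.14 against -0.09 for all genes, and 26 of the 37 were below 0. A second probe set of Col18a1 that passed the filter gave -0.65 ± 0.42. Dimmer ones that did not pass it gave 1.03 ± 0.42, 0.80 ± 0.41 and -0.82 ± 0.34. Nes, nestin, an intermediate filament protein of vessel and progenitor cells, fell by 0.99 ± 0.18 (limma adjusted p = 0.00141) and was also called with the array set as a block. No endothelial or matrix list member was called with the array set as a block or without dKO chow replicate 2 (limma), and none with the actin ratio as a covariate, which moved with diet as given above. The part of array set and actin ratio in these falls was not tested further.

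Genes of heart muscle and its metabolism showed no call. Among 22 sarcomere genes, 28 of fatty acid uptake and oxidation, 31 of the citrate cycle and respiratory chain, 10 of calcium handling and 18 of glycolysis, 0 rose and 0 fell, with medians of -0.05, 0.01, -0.04, -0.04 and -0.12. At an unadjusted p under 0.05, 1, 0, 0, 0 and 2 of them were lower and 0 in each list were higher. Lgals3 was the only one called of 15 cardiac stress genes, where 1.22% of all genes fell. Bhlhe40, a repressor in the circadian clock, fell by 0.66 ± 0.18 (limma adjusted p = 0.0456), the only one called of 14 clock genes. It was not called with the array set as a block (adjusted p = 0.0696), with the actin ratio (0.0876) or without dKO chow replicate 2 (0.0747). None of 19 proliferation genes passed (limma, 2 lower at an unadjusted p under 0.05), with 18 below 0, as were 3804 of all 5672 genes, and a median of -0.37.

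**Figure D4:**
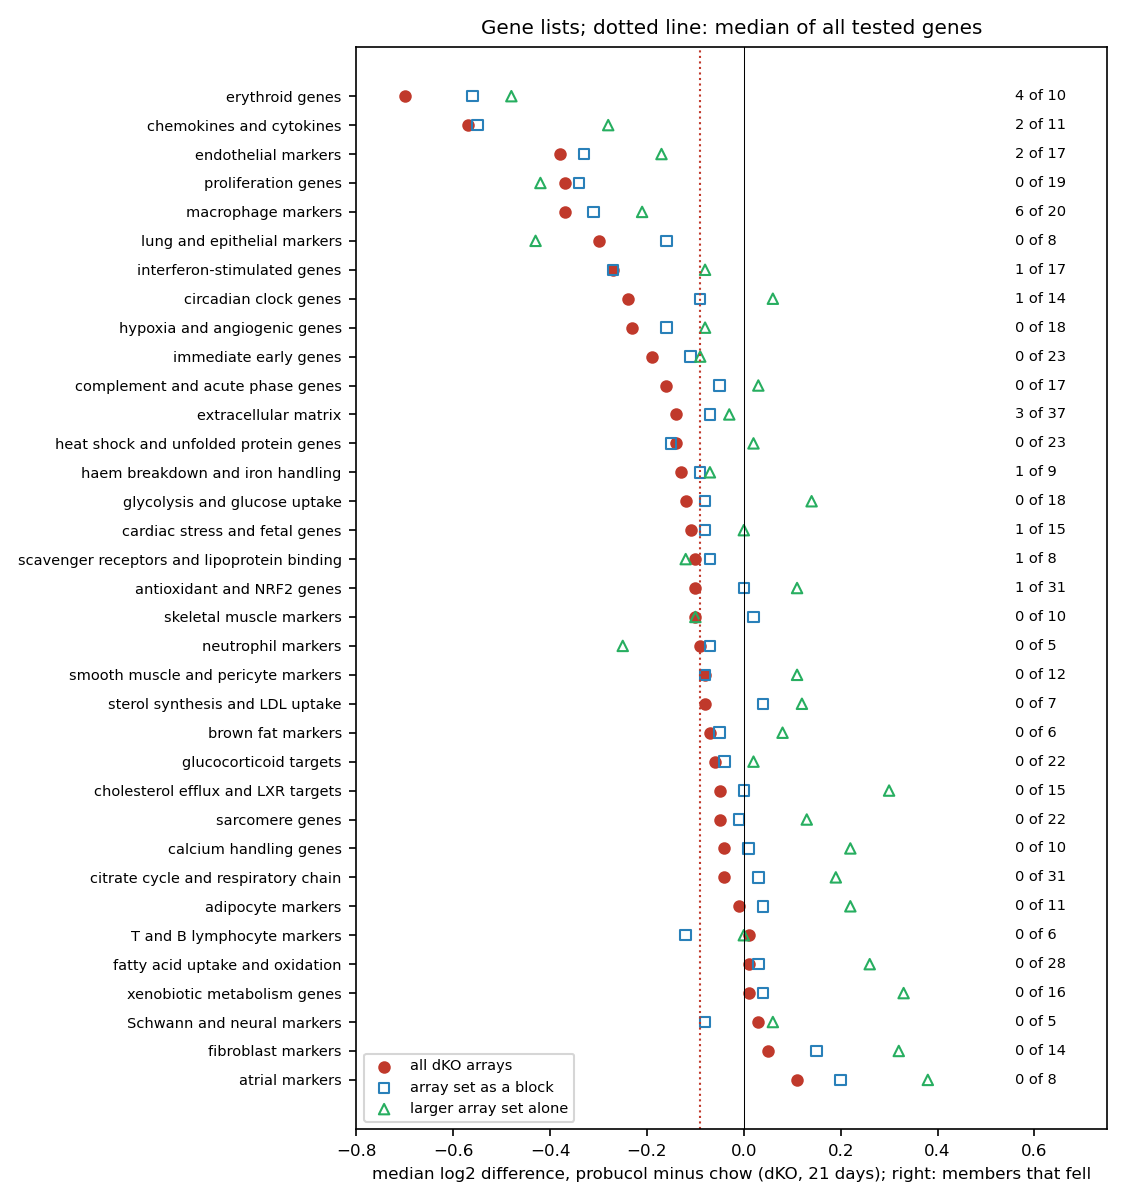
Median log2 difference between probucol and chow in dKO hearts at 21 days for each gene list with at least 5 tested genes, over all 16 arrays (red), with the array set as a block (blue) and within the larger set (green); the numbers at the right count the members that fell. Erythroid genes have the lowest median, -0.70, and the lists of muscle metabolism lie near the dotted line of all genes at -0.09.

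The rises numbered 4. Gm10229 was at 5.47, 5.73 and 6.12 in dKO probucol hearts and at 2.93, 3.88 and 5.72 in dKO chow hearts, a difference of 1.56 ± 0.38 (limma adjusted p = 0.0185). Clca1, a secreted protein that regulates chloride channels, rose by 1.48 ± 0.36, Aqp8, a water channel, by 1.15 ± 0.32 and Dpep3, a dipeptidase, by 0.99 ± 0.28, while a second probe set of Dpep3 gave 0.10 ± 0.21. In all 4 the chow hearts were more spread than the probucol hearts and the groups overlapped. In each of the 4 the lowest chow heart was in the smaller array set. None was called with the array set as a block or without dKO chow replicate 2. Within the larger set Gm10229, Clca1, Aqp8 and Dpep3 differed by 0.71, 0.41, 0.34 and -0.15. Among the largest falls outside the lists, Rbl1, the retinoblastoma relative p107, fell by 1.47 ± 0.31 (limma adjusted p = 0.00461). Rbl1 was dim, at 2.28, 3.21 and 4.67 in dKO probucol hearts, with 1 heart at the floor. In dKO chow hearts it was at 3.21, 5.01 and 5.75. At 31 and 43 days Rbl1 differed by -0.55 and -0.36, neither past the threshold. Gas8, a subunit of motile cilia, fell by 1.26 ± 0.33 and Cps1, the urea cycle enzyme carbamoyl phosphate synthetase, by 1.07 ± 0.30, each with probucol hearts spread over more than 3 log2 units. Neither was called with the array set as a block (limma adjusted p = 0.124 for Gas8 and 0.231 for Cps1) or without dKO chow replicate 2 (0.0615 and 0.0936).

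Cholesterol efflux genes, which the nuclear receptor LXR turns on when cells load with sterol, gave no call with probucol in dKO hearts. Of 15 tested none passed (limma, 1 lower at an unadjusted p under 0.05), with a median of -0.05. Abca1, the cholesterol exporter, was at 7.87, 8.65 and 9.50 in dKO probucol hearts and at 7.94, 8.51 and 9.37 in dKO chow hearts. The groups lay over each other and the difference was 0.16 ± 0.18 (limma adjusted p = 0.772). HET hearts were at 7.57 to 8.31 on probucol and at 6.42 to 7.30 on chow. Apod, a lipid-binding apolipoprotein, was at 6.98, 8.5 and 9.55 in dKO probucol hearts and at 5.75, 7.16 and 8.01 in dKO chow hearts, and its difference of 1.21 ± 0.39 missed the threshold (limma adjusted p = 0.106). Setting the dKO probucol hearts against HET chow hearts left 6 genes (0.106%; 0.0705% higher, 0.0353% lower), named here after their values were seen. Apod was 3.99 ± 0.40 higher, Abca1 1.83 ± 0.18, the lipid synthesis regulator Srebf1 1.56 ± 0.17 and the desaturase Scd2 1.54 ± 0.15. This comparison differs in both genotype and diet. In HET hearts probucol against chow gave 2.96 ± 0.50 for Apod, 1.18 ± 0.23 for Abca1, 1.13 ± 0.22 for Srebf1 and 1.01 ± 0.19 for Scd2 (limma adjusted p = 0.000146, 0.00176, 0.000987 and 0.000631). Tested directly, this diet difference was not called as unlike between dKO and HET hearts for Apod, Abca1 or Srebf1 (limma adjusted p = 0.216, 0.0869 and 0.0833). For Scd2 it was (-1.02, adjusted p = 0.0125), though not on the signals as deposited (0.35). Scarb1 and Ddit4, a stress-induced inhibitor of growth signalling, were lower in dKO probucol than in HET chow hearts. Their differences were -1.30 ± 0.16 and -1.30 ± 0.29. The same test between dKO and HET hearts on chow called 283 genes (4.99%; 4.07% higher, 0.917% lower in dKO). The 2 tests share the HET chow arrays, and the probucol group was smaller. They also differ in array set: the smaller set held 6 of 10 dKO chow, 2 of 9 HET chow and 1 of 6 dKO probucol arrays. Neither count was adjusted for this imbalance, and its part in the gap between 283 and 6 was not tested.

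The falls were then set beside the other groups. In HET hearts at 21 days 35 of the 69 were lower with probucol and 0 were called lower. The median of the 69 there was -0.02 against 0.08 for all genes. Lilr4b was called in the other direction there, higher with probucol by 1.11 (limma adjusted p = 0.0458). At a p under 0.05 without adjustment, 370 of all genes differed between the diets in HET hearts, and 27 (0.476%) passed the threshold. Of these 27, 26 were higher (0.458% of all genes) and 1 was lower (0.0176%) with probucol. With so few genes called lower and 3 probucol hearts, the 0 does not show that the falls were absent in HET hearts. At 31 days, in other mice, 67 of the 69 were lower with probucol in dKO hearts and 51 were called, where 11.4% of all genes were called lower and 7.95% higher. At 43 days it was 62 lower and 49 called, where 17.0% were called lower and 38.2% in either direction.

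Whether probucol acted differently in the 2 genotypes was tested as the difference of the differences. It passed for 42 genes (0.740%), 41 of them (0.723%) with the lower value in dKO. On the signals as deposited 6 genes passed, 3 with the lower and 3 with the higher value in dKO. Hmox1 differed by -1.20 ± 0.24 between genotypes (limma adjusted p = 0.00326), with 0.06 ± 0.19 in HET hearts. It was not called as deposited (-0.85, adjusted p = 0.355) or after quantile normalization (-0.91, 0.102). Cd68 differed by -1.29 ± 0.28, Mpeg1 by -1.26 ± 0.29, Tyrobp by -1.37 ± 0.32 and Alas2 by -1.55 ± 0.38 (limma adjusted p = 0.00979, 0.0125, 0.0138 and 0.0229). With the array set as a block Cd68, Mpeg1 and Tyrobp were called and Alas2 was not (limma adjusted p = 0.0643). As deposited none of the 4 was called (0.201 to 0.336), and after quantile normalization only Cd68 was (0.0385). In HET hearts these 4 differed by 0.43, 0.50, 0.60 and 0.49, none past the threshold. Smarcad1, a chromatin remodeller, was the 1 gene with the higher value in dKO, at 2.03 ± 0.51.

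The largest of these differences were in antigen presentation and interferon genes, and their calls were lost without 1 HET heart. H2-Q5, H2-K2 and H2-D4, related class I genes whose probe sets may share transcripts, differed by -3.57 ± 0.71, -3.54 ± 0.81 and -3.01 ± 0.74. Igtp, an interferon-induced GTPase, differed by -2.65 ± 0.68 and was at 5.58, 4.88 and 12.06 in the 3 HET probucol hearts. The high value was that of replicate 3, which was also the highest of the 3 in H2-Q5, H2-K2, H2-D4 and Mpeg1. Without this heart 11 genes passed in place of 42. Hmox1 and Alas2 were then still called, at -1.26 and -2.04 (limma adjusted p = 0.0225 and 0.0147). Igtp was at -0.38, H2-Q5 at -2.55, H2-K2 at -2.48 and H2-D4 at -1.79, none past the threshold (limma adjusted p = 0.803, 0.109, 0.236 and 0.356). Cd68, Mpeg1 and Tyrobp were at -1.20, -0.81 and -1.14 and no longer passed (limma adjusted p = 0.0694, 0.299 and 0.143).

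The difference between probucol and chow in dKO hearts was then tested against that at later ages. Against 21 days, 146 genes (2.57%; 1.27% higher, 1.30% lower) had another difference at 31 days and 1330 (23.4%; 16.0% higher, 7.49% lower) at 43 days. On the signals as deposited the split was 8 higher and 582 lower at 31 days and 241 higher and 1461 lower at 43 days. Of the 69 falls, 8 passed at 31 days, 7 with a lower and 1 (Gas8) with a higher value than at 21 days, and 28 at 43 days, 20 lower and 8 higher, in tests that contain the 21-day difference itself. Cxcl12 and Tinagl1 were among the 8 with a higher value at 43 days, at -0.59 and -0.97 at 21 days and 0.07 and 0.06 at 43 days. For Alas2 it was -1.06 ± 0.23, -2.40 ± 0.21 and -3.47 ± 0.22 at 21, 31 and 43 days, and both later values passed the test against 21 days (limma adjusted p = 0.0148 and 1.14e-08). Cd68 had -0.86 ± 0.17, -1.86 ± 0.16 and -2.36 ± 0.17, with adjusted p of 0.0151 and 1.02e-06 for the change. Hmox1 had -1.14 ± 0.15, -1.77 ± 0.14 and -2.37 ± 0.14, of which the value at 43 days passed (limma adjusted p = 2.68e-06) and that at 31 days did not (0.0651). Slc4a1 had -1.14, -1.62 and -1.93 and Eng -0.57, -0.39 and -0.32, with neither later age past the test against 21 days.

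Other genes differed little between the diets at 21 days and strongly at later ages. Ccl8, a monocyte chemokine, differed by -0.38 ± 0.39 at 21 days, -3.98 ± 0.36 at 31 days and -4.85 ± 0.38 at 43 days, and Lox, the collagen crosslinking enzyme, by -0.04 ± 0.46, -2.47 ± 0.42 and -4.69 ± 0.44. Each change from 21 days passed (limma adjusted p = 9.39e-06 and 9.02e-10 for Ccl8, 0.0207 and 2.04e-08 for Lox). Sprr1a, a stress-induced protein of injured heart, had -0.07 at 21 days and -3.89 at 43 days, and Ces1d, a lipid hydrolase, 0.03 and 3.84. Apod and Abca1, not called at 21 days, were lower with probucol at both later ages. Apod had 1.21 ± 0.39, -2.03 ± 0.36 and -1.82 ± 0.38, and Abca1 had 0.16 ± 0.18, -0.81 ± 0.17 and -0.77 ± 0.18 at 21, 31 and 43 days. Both genes passed the test against 21 days at both ages (limma adjusted p = 7.9e-05 and 9.07e-06 for Apod, 0.0204 and 0.00328 for Abca1). The dKO chow arrays at 31 and 43 days were all in the larger array set, while 6 of 10 at 21 days were in the smaller, so age and array set were partly mixed on chow.

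**Figure D5:**
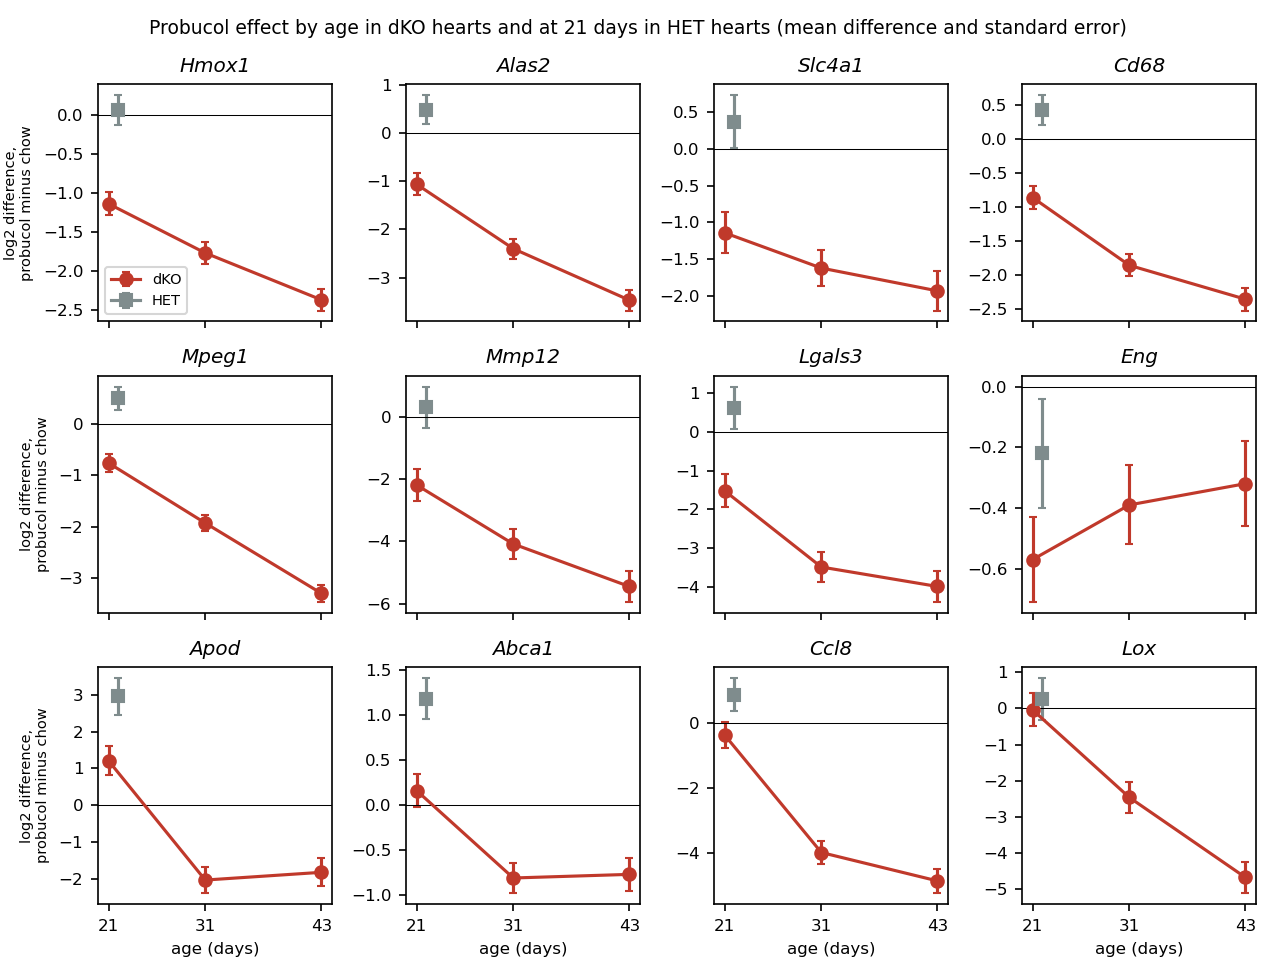
Log2 difference between probucol and chow (y axis) with its standard error for 12 genes in dKO hearts at 21, 31 and 43 days (red circles) and in HET hearts at 21 days (grey squares, drawn slightly to the right). Alas2, Cd68 and Mpeg1 are below 0 at 21 days and lower at each later age, whereas Ccl8 and Lox lie near 0 at 21 days and Apod lies above 0 at 21 days alone.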

How the data were processed

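The deposited values were linear signal intensities of 12488 probe sets on 88 Affymetrix arrays, 1 mouse each. MAS5 is named in the submitters' processing notes, and the sources used here do not give a scaling step. Groups came from the titles, with a p-value for each comparison over mice. Values under 4.22, the percentile 10 of all values, were set to it, and log2 values were centred on each array's median. Probe sets with 1 symbol in the upper 60% by mean were kept, the brightest per gene, which left 5672 genes. Of the values of tested genes on the 16 arrays of the main comparison, 0.15% were at or under this floor. A difference that rests on such values may be understated. With values under 1 raised to 1 in place of the floor, the count was 72 in place of 73.

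All 12 groups were fitted with limma 3.58.1 in R 4.3.3 (package data.table, version 1.17.8), with an intensity trend and Benjamini-Hochberg adjustment within each contrast at 0.05. The model was tested on simulated data with independent noise for each gene, without the array sets or other shifts shared between genes. The array sets came from the second residual component, with 6.67% of the variance, read from the same arrays. Named genes were Scarb1, Apoe, the 12 largest rises and falls, up to 4 called members of each list and the 5 largest interactions each way. The members and the lists were chosen with earlier results of these data known. Alternatives covered scaling, floor, filter, probe set choice, samples fitted, replicate block, trend, weights, covariates, array set, a minimum of 1.5-fold and single hearts left out. Same-numbered hearts did not deviate together, with correlations of -0.14 to 0.07 over 6 pairs, so the numbers do not pair them. The number of arrays limits the precision.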

Additional observations from a re-analysis of the deposited data

Results flagged for a closer look

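Single hearts stood far from the rest of their group in 6 of 84 tests over 42 genes (7.14%), where chance gives about 1 in 20. In dKO probucol hearts replicate 3 was low in Scarb1 (5.43), Isg20 (3.40) and H2-K2 (4.98), and replicate 4 was high in Ccl8 (6.05). In dKO chow hearts replicate 4 was low in Rbl1 (3.21) and replicate 6 was high in Ccl8 (6.59).

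The difference between probucol and chow at 21 days was not the same in dKO as in HET hearts for 12 named genes (limma, dKO minus HET). It was -2.52 for Isg20, -1.20 for Hmox1, -1.55 for Alas2, -1.29 for Cd68, -1.26 for Mpeg1, -1.37 for Tyrobp, -1.02 for Scd2, -3.57 for H2-Q5, -3.54 for H2-K2, -3.01 for H2-D4, -2.65 for Igtp and 2.03 for Smarcad1. With signals as deposited H2-Q5, H2-K2 and Smarcad1 alone among these still passed.

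In dKO hearts the difference at 31 days minus that at 21 days was -2.11 for Isg20, -1.96 for Lgals3, 1.55 for Gas8, -1.34 for Alas2, -1.55 for Aqp8, -1.0 for Cd68, -1.17 for Mpeg1, -3.24 for Apod, -0.97 for Abca1, -3.60 for Ccl8 and -2.43 for Lox. At 43 minus 21 days it was -3.27 for Mmp12, -2.95 for Isg20, -2.45 for Lgals3, 1.36 for Gas8, -1.22 for Hmox1, 1.24 for Cps1, -2.41 for Alas2 and -1.48 for Gm10229. It was -1.51 for Cd68, -2.54 for Mpeg1, -2.11 for Tyrobp, -0.65 for Fn1, -0.76 for Col18a1, -1.03 for Bgn and 0.66 for Cxcl12. For the remaining genes it was -3.03 for Apod, -0.93 for Abca1, -1.05 for Ddit4, -4.47 for Ccl8, -4.65 for Lox, -3.82 for Sprr1a and 3.81 for Ces1d.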

How the results depend on the processing

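The count of 73 genes between probucol and chow in dKO hearts at 21 days was 10 as deposited, 19 after quantile normalization, 28 with the compared groups alone, 108 with the replicate block, 349 with array weights, 38 with the actin ratio, 26 with the array set as a block, 1 within the larger set, 7 within the smaller and 0 past 1.5-fold (25 at an unadjusted p of that limma test). Leaving out single hearts gave 28 to 132. It was 28 to 47 without probucol replicate 1, 2, 3 or 5 or chow replicate 1, 2, 4, 5 or 8, each. Settings chosen after seeing the data gave 22 with array set and sex marker, 8 with array set on deposited signals and 22 with array set and actin ratio. The 42 genes differing between genotypes became 6 as deposited, 14 after quantile normalization, 2 with the compared groups alone, 26 with the replicate block, 17 and 0 within the larger and smaller set, 0 past 1.5-fold and 3 with the set on deposited signals, with 754 and 87 genes at an unadjusted p of limma beside the 0 of the smaller set and of the 1.5-fold test, and 11 to 65 when single hearts were left out (25 without dKO probucol replicate 3, 65 without chow replicate 3, 11 without HET probucol replicate 3). The 146 at 31 minus 21 days became 590 as deposited (8 higher, 582 lower, against 72 and 74), 240 after quantile normalization, 529 with array weights, 71 with the actin ratio, 84 with the array set as a block, 2 past 1.5-fold, and 83, 373 and 74 with the added settings, with 66 to 238 for single hearts (83, 97 and 66 without dKO probucol replicates 2, 3 and 4, and 238, 88 and 83 without chow replicates 3, 4 and 9). The 1330 at 43 minus 21 days (905 higher, 425 lower) had 241 and 1461 as deposited and 757 and 608 after quantile normalization, 218 past 1.5-fold and 1224 to 1446 for single hearts. Within the smaller set the ages could not be compared, since it holds no dKO chow array at 31 or 43 days. Signs turned for Dpep3 (-0.15, larger set), Gas8 (0.02, smaller set), Cps1 (0.34, smaller set) and Igtp between genotypes (0.09, smaller set). Causes were not tested beyond the alternatives themselves.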

Other observations

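In 10 genes the 6 dKO probucol hearts and the 10 dKO chow hearts did not overlap, 9 lower (0.159% of the genes tested) and 1 higher (0.0176%) with probucol. Besides Hmox1, Slc4a1, Eng and Col18a1 these were Tinagl1, a secreted matrix glycoprotein (-0.97), Rbck1, a subunit of the linear ubiquitin ligase (-0.46), and Foxo4, a forkhead transcription factor (-0.60), which also passed the threshold (limma adjusted p = 0.00357, 0.00357 and 0.00541). Trim47, Ccnd3, which encodes cyclin D3, and 1810021B22Rik differed by -0.39, -0.36 and 1.40 and did not pass (limma adjusted p = 0.106, 0.236 and 0.104).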
